A study of Mus musculus with 8 samples.

Results

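Interleukin-2 (IL-2), the chains of its receptor and the CIS and SOCS inhibitors of cytokine signalling were followed in mouse splenic T cells before and during activation. The members were all probe sets of Affymetrix MOE430A_2.0 arrays that the platform's gene table pairs with Il2, Il2ra, Il2rb, Il2rg, Cish, Socs1, Socs2 or Socs3. There were 12 such probe sets for 7 of the 8 genes, among 22626 probe sets and 12394 named genes. The table lists no probe set for Il2rg, the common gamma chain, whose signal was not analysed here. All 12 passed the filter on low signals. The probe sets of 1 gene read the same RNA and are not replicates.

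The cells came from spleens of Gfi1-knockout mice or of wild-type mice, both C57Bl/6, and their arrays are called KO-labelled and WT-labelled here. Gfi1 is a zinc finger repressor of transcription. T cells of both genotypes were taken with a pan-T cell magnetic kit, and RNA was taken before stimulation (0 h) or after 4, 8 and 24 h of culture with antibodies against CD3 and CD28 at 2 µg/ml. CD3 is the signalling part of the T cell receptor and CD28 its costimulatory partner. Each genotype and time had 1 array, 8 in all, and the titles give 1 source number per genotype, with no age, sex or number of mice. A genotype and its source therefore cannot be told apart, and no test is given for a difference between genotypes. No culture without antibodies was measured, so the antibodies and time in culture cannot be told apart either. Stimulation was tested on the change that the genotypes had in common, with the disagreement between their responses as the error, so no spread between mice enters it.

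IL-2 is the growth factor that T cells make when they are activated. It binds a receptor of an alpha chain (Il2ra, CD25), a beta chain (Il2rb, CD122) and the common gamma chain. The alpha chain raises affinity and does not signal, while the beta and gamma chains signal through the kinases Jak1 and Jak3 to the transcription factor STAT5. Genes of the CIS and SOCS family are induced by STAT factors, and their proteins bind receptors or Janus kinases and damp the signal, which closes a feedback loop.

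A pair of features of the arrays touch every value below. Gfi1 itself gave 2316, 5979, 6459 and 9885 at 0, 4, 8 and 24 h in the KO-labelled arrays, against 882, 6359, 5259 and 3966 in the WT-labelled ones. It was higher in the KO-labelled array at 0, 8 and 24 h. Whether its probe set falls inside the deletion is not stated, so Gfi1 does not check the labels. Cell type markers also differed. The 14 T cell markers summed to 34817, 30050, 26106 and 70307 in the KO-labelled arrays at 0, 4, 8 and 24 h, against 110060, 95783, 70063 and 76886 in the WT-labelled arrays, with none under the floor. The 14 granulocyte precursor markers summed to 8685 to 182287 in the KO-labelled arrays, against 1084 to 17296 in the WT-labelled ones, with 13 of the 14 under the floor in the WT-labelled 24 h array. The 13 monocyte and macrophage markers summed to 16835 to 61681 in KO-labelled and 1508 to 9323 in WT-labelled arrays. At least 2-fold higher in KO-labelled arrays were 11, 11, 11 and 10 of the 14 at 0, 4, 8 and 24 h. Of the 13 it was 7, 9, 10 and 9, beside 8.08%, 11.8%, 10.7% and 9.18% of all tested genes. Ngp, Camp and Ltf were lower at 0 and 4 h (log2 -0.54 and -0.81, -0.56 and -0.82, -0.60 and -0.21). C1qb and Adgre1 were lower at 0 h (-0.39 and -0.65). The plot of summed marker signals shows that the T cell sums were close at 24 h, and far apart at 0, 4 and 8 h. A sum is weighted to its brightest genes. At 24 h Thy1 was higher in the KO-labelled array (log2 1.60) and Trat1 lower (-1.91), and the median difference of the T cell markers was -0.23. In bulk RNA fewer cells of a type and less RNA per cell cannot be told apart.

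**Figure D1:**
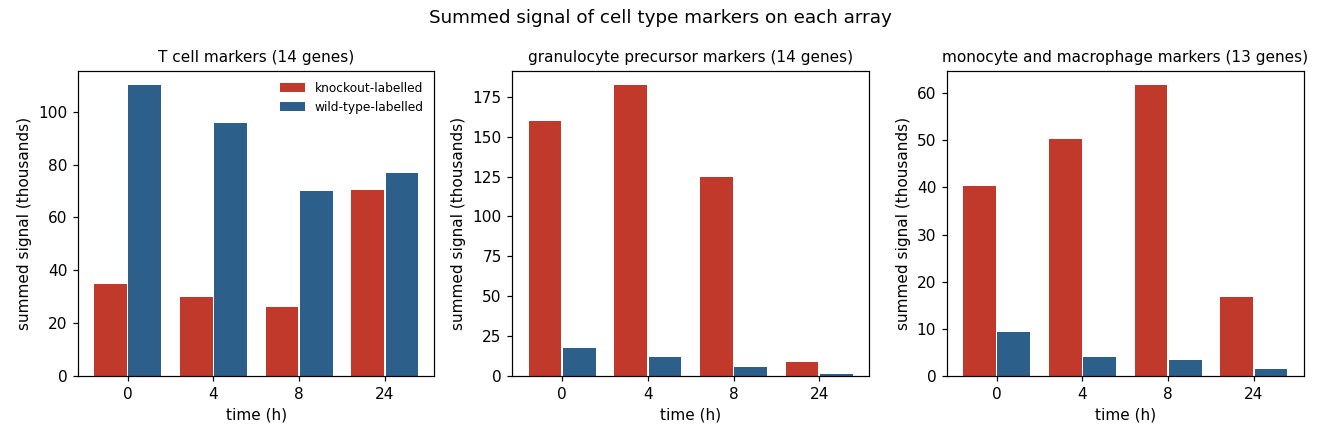
Summed signal of the marker genes of 3 cell types on each array (y axis) by time (x axis, h), with KO-labelled arrays in red on the left and WT-labelled arrays in blue on the right, 1 array per bar. Summed T cell marker signal was lower in the KO-labelled arrays at 0, 4 and 8 h and 70307 against 76886 at 24 h. The sums of both myeloid lists were higher in them at all 4 times, though not every gene was.

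The regulatory sequences at the starts of Il2, Cish and Socs3 are shown. Il2 is the cytokine, and Cish and Socs3 are the inhibitors whose promoters held a match to a STAT factor site. They were chosen by that match and not by their change in signal, and Socs1, without such a match, is not shown. The sequences are RefSeq's, build GRCm38.p6, which had a promoter for 6 of the 8 members, all but Il2rb and Socs2. Each is of 250 bases before and 50 after the annotated start. Capitals in the Il2 sequence mark GGAAA or its complement TTTCC, the core of sites bound by NFAT, the factor that calcium signals activate. Capitals in the Cish and Socs3 sequences mark TTCNNNGAA, the GAS element that STAT factors bind. Bases are numbered from the annotated start, with negative numbers before it. The Socs3 bases shown lie inside the gene's annotated span (chr11:117966079-117970336), so the start used for Socs3 is not the outermost one.
Il2 promoter, chr3:37125955-37126204, minus strand, bases -250 to -1: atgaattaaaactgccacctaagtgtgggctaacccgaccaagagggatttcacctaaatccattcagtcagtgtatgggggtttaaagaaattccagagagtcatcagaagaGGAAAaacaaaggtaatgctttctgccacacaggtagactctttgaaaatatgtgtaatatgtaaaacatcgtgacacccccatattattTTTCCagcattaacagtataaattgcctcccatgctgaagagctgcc
Cish start site, chr9:107296654-107296683, plus strand, bases -5 to 25: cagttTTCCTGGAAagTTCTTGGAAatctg
Socs3 promoter, chr11:117969502-117969530, minus strand, bases -164 to -136: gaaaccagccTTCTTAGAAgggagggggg

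Il2 held 2 NFAT cores and 0 GAS elements in its 300 bases, and Cish held 2 GAS elements, at bases 1 to 9 and 12 to 20. Searching both strands of 32851 RefSeq promoters of the same length found a GAS element in 8.3% and at least 2 in 0.457%. Socs3 held 1, at -154 to -146, and Il2ra, Il2rg and Socs1 held 0. The NFAT core was common (61.3% of promoters), as was AATC, the core of sites bound by Gfi1 (73.1%). AATC was found 3 times each in Il2, Il2rg and Cish, 1 each in Il2ra and Socs1 and 0 in Socs3. The AP-1 element TGANTCA (7.81% of promoters) was found in none of the 6. The matches can overlap (GGAAA overlaps each Cish GAS element), and they describe letters, not binding.

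Signals are in the arrays' own units, in which a 2% trimmed mean of each array is near 1000. Signals under 141.88 were set to that floor before log2 was taken. Signals of different genes are not on a common scale and are not compared, and the marker sums above add them only to set arrays side by side. Where a gene had several probe sets, the one with the highest mean represents it and the others are given beside it.

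Il2 was switched on by 4 h in both genotypes and was highest there. Its signal was 52.1, 16012, 7044 and 3926 at 0, 4, 8 and 24 h in the KO-labelled arrays, against 129, 12882, 8782 and 7257 in the WT-labelled arrays. Both 0 h signals were under the floor, so the rise at 4 h was at least 113-fold in the KO-labelled and at least 90.8-fold in the WT-labelled array. Averaged over genotypes Il2 rose by 6.66 at 4 h, 5.79 at 8 h and 5.23 at 24 h on the log2 scale (SE 0.31 each, limma adjusted p = 0.00107, 0.00288 and 0.00381, higher in both genotypes). Setting both 0 h signals to the floor removes the spread between them, so these SE and p can be too small.

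After the 4 h maximum the Il2 signal declined in both genotypes. At 8 h 44.0% of the 4 h signal was left in the KO-labelled array and 68.2% in the WT-labelled one. From 8 to 24 h the shares left were 55.7% and 82.6%. The shared change from 4 to 8 h was -0.87 (SE 0.31, limma adjusted p = 1.0) and from 8 to 24 h -0.56 (limma adjusted p = 0.642), so neither step passed the test. The difference between genotypes, knockout minus wild type, ran from 0.31 at 4 h through -0.32 at 8 h to -0.89 at 24 h. None reached 2-fold. At 4 h the Il2 signal was thus 1.24 times the WT-labelled one, in a sample whose T cell marker sum was 30050 against 95783. The part of the T cell content in this was not tested.

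**Figure D2:**
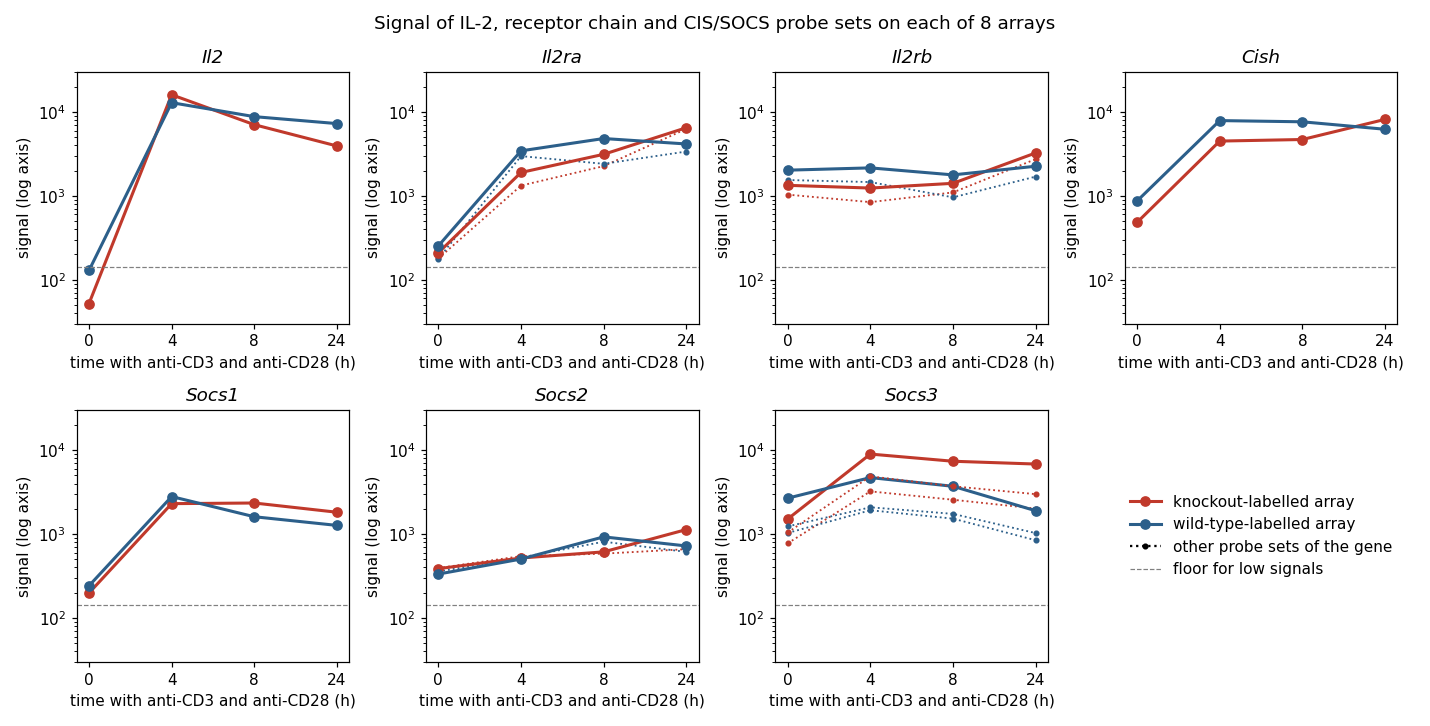
Signal (y axis, log scale) against time (x axis, h) for 7 genes, with KO-labelled arrays in red and WT-labelled arrays in blue. Each point is 1 array, solid lines join the brightest probe set, dotted lines the others, and the dashed line is the floor of 141.88. Il2 peaked at 4 h in both genotypes, the solid lines of Il2ra and Cish were highest at 24 h in the KO-labelled arrays and at 8 and 4 h in the WT-labelled ones, and all 3 Socs3 probe sets were higher in the KO-labelled than in the WT-labelled arrays at 4, 8 and 24 h.

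Of the receptor chains, Il2ra rose strongly and Il2rb did not pass the test. The alpha chain gene Il2ra gave 209.9, 1898, 3125 and 6478 in the KO-labelled arrays at 0, 4, 8 and 24 h, against 253, 3436, 4818 and 4149.5 in the WT-labelled arrays. In the KO-labelled arrays each later time was higher, while in the WT-labelled arrays it was highest at 8 h. The shared rise was 3.47, 4.07 and 4.49 on the log2 scale at 4, 8 and 24 h (SE 0.38 each, limma adjusted p = 0.0159, 0.0125 and 0.00895, higher in both genotypes). The steps from 4 to 8 h (0.60, limma adjusted p = 1.0) and from 8 to 24 h (0.42, limma adjusted p = 0.763) did not pass, so those times have no order beyond the spread.

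The second Il2ra probe set gave 179.3, 1325, 2261 and 6271 in the KO-labelled arrays, against 178.2, 2974, 2407 and 3372. It passed the same tests, with rises of 3.47, 3.71 and 4.69. The genotype difference was -0.86 at 4 h in the brightest probe set and -1.17 in the second, so only the second was past 2-fold. At 24 h the differences were 0.64 and 0.89. Regulatory T cells carry the alpha chain before activation. The 6 regulatory T cell markers summed to 2732, 6848, 8097 and 25339 at 0, 4, 8 and 24 h in the KO-labelled arrays, against 6912, 17673, 14524 and 15549 in the WT-labelled arrays. Most of the KO-labelled sum at 24 h came from Tnfrsf18 (14250) and Ctla4 (9493), which gave 10528 and 2114 in the WT-labelled array. From 0 to 24 h in the KO-labelled arrays Gpr83 went from 177 to 169 and Izumo1r from 803 to 845. By 2-fold or more, 3, 5 and 2 of the 6 were lower in the KO-labelled array at 0, 4 and 8 h. Of all tested genes 6.75%, 6.56% and 6.66% were. Higher were 0, 0 and 1, beside 8.08%, 11.8% and 10.7%. At 24 h the members went both ways, with 2 of the 6 higher (9.18% of all tested genes), Ctla4 (2.17) and Foxp3 (1.36). Another 2 were lower (5.06%), Gpr83 (-1.39) and Izumo1r (-1.40). The list does not hold Il2ra, and it shares Tnfrsf18 with the IL-2 response genes given further on. Their part in the Il2ra values was not tested.

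The beta chain gene Il2rb was already above the floor at 0 h and gave 1334, 1238, 1409.5 and 3245 in the KO-labelled arrays, against 2022, 2153, 1777 and 2253 in the WT-labelled ones. The WT-labelled arrays spanned 1.27-fold and the KO-labelled ones 2.62-fold, with the 24 h array the highest in each. The shared changes were -0.01, -0.05 and 0.72 at 4, 8 and 24 h (SE 0.35 each, limma adjusted p = 1.0, 0.958 and 0.291). The first 2 turned positive under both other scalings of the arrays. The second probe set gave 1033.5, 842, 1098 and 2738, against 1543, 1459, 959.5 and 1694, also with the highest array at 24 h in each genotype. Genotype differences of the brightest probe set were -0.60, -0.80, -0.33 and 0.53. Natural killer cells carry the beta chain. The 6 natural killer cell markers summed to 5232, 4134, 5098 and 8898 at 0, 4, 8 and 24 h in the KO-labelled arrays. The WT-labelled sums were 10609, 6589, 5503 and 2107. On every array 2 of the 6 were under the floor. The part of natural killer cells was not tested.

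The 4 inhibitors fell into different patterns. Cish and Socs1 rose early and strongly in both genotypes. Socs2 did not pass the test. Socs3 differed most between genotypes. Cish, whose product CIS binds activated cytokine receptors and carries the pair of GAS elements shown above at its start, gave 483, 4493, 4689.9 and 8143 in the KO-labelled arrays at 0, 4, 8 and 24 h. The WT-labelled arrays gave 869, 7881, 7624 and 6213. Cish was lower in the KO-labelled array at 0, 4 and 8 h, at 55.6%, 57.0% and 61.5% of the WT-labelled signal, and higher at 24 h (131%). The fold rise at 4 h was nearly equal, 9.31 and 9.07, and the 0 h signals differed in about the same proportion as those at 4 h. At 24 h the fold over 0 h was 16.9 in the KO-labelled and 7.15 in the WT-labelled array. The shared rise was 3.20, 3.21 and 3.46 (SE 0.34 each, limma adjusted p = 0.0159, 0.0127 and 0.00904, higher in both genotypes).

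Socs1, whose product inhibits Janus kinases directly, gave 199, 2305, 2346 and 1821 in the KO-labelled arrays, against 242, 2799.8, 1609 and 1269 in the WT-labelled arrays. The rise at 4 h was 11.6-fold in each. The WT-labelled signal at 8 h was 57.5% of that at 4 h, while the KO-labelled one was 102%. The shared rise was 3.53, 3.15 and 2.79 (SE 0.33 each, limma adjusted p = 0.0134, 0.0127 and 0.0133, higher in both genotypes). Genotype differences were small, -0.29, -0.28, 0.54 and 0.52.

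Socs2, known as a feedback inhibitor of growth hormone signalling, gave 387, 519, 614 and 1132 in the KO-labelled arrays, against 334, 504, 927 and 722 in the WT-labelled arrays. It was lowest at 0 h in both genotypes. Its shared changes of 0.51, 1.07 and 1.33 did not pass the test (SE 0.38 each, limma adjusted p = 0.616, 0.191 and 0.113). In the second probe set the KO-labelled 24 h signal was 661, close to the 614 of the WT-labelled array, so the 1.57-fold difference at 24 h in the brightest probe set was 1.08-fold there. That second probe set is of a kind whose probes can match several transcripts.

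Socs3, whose product binds the IL-6 receptor subunit gp130 and Janus kinases, was the member that differed most between genotypes. Its brightest probe set gave 1512, 8983, 7377 and 6833 in the KO-labelled arrays, against 2679, 4713, 3711 and 1897 in the WT-labelled arrays. The KO-labelled signal was the lower one at 0 h and the higher one at the other 3 times. The other Socs3 probe sets did the same, with 777, 3229, 2566 and 2014 against 1031, 1923, 1528 and 844, and 1044.5, 4873, 3716 and 2990.4 against 1235, 2085, 1741 and 1028.

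The differences of the 3 Socs3 probe sets were 0.75 to 1.22 at 4 h, 0.75 to 1.09 at 8 h and 1.25 to 1.85 at 24 h, and -0.82 to -0.24 at 0 h. At 24 h all 3 were past 2-fold. In the WT-labelled arrays Socs3 at 24 h stood at 70.8% of its 0 h signal, against a 4.52-fold rise in the KO-labelled arrays. The response difference at 24 h, the KO-labelled change minus the WT-labelled one, was 2.67 on the log2 scale in the brightest probe set and 1.66 and 1.78 in the others, which were under the 4-fold size used here. By their names the brightest probe set and the one at 1.78 can hold probes that match other sequences, and the one at 1.66 does not. The shared changes did not pass the test, at 1.69, 1.38 and 0.84 (SE 0.56 each, limma adjusted p = 0.254, 0.240 and 0.436). Monocyte and macrophage markers, which belong to cells that also express Socs3, had a median difference of 1.35, 3.23, 3.58 and 2.11 at 0, 4, 8 and 24 h in the same arrays. Their part in the Socs3 values was not tested.

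Counted together, 4 of the 7 genes (Il2, Il2ra, Cish and Socs1) rose at 4 h, and the same 4 rose at 8 and at 24 h, by limma's adjusted p under 0.05 and at least 2-fold. Over all 8457 tested genes 0.804% rose at 4 h, 1.18% at 8 h and 1.49% at 24 h. None of the 7 fell, against 0.627%, 1.25% and 2.48% of all genes. The median change of the 7 was 3.20, 3.15 and 2.79, beside -0.10, -0.11 and -0.08 over all tested genes. Between 4 and 8 h and between 8 and 24 h limma called 0 genes of all tested (0.0%), with 257 and 765 at an unadjusted p under 0.05. Of the 7, by their brightest probe sets, Il2 alone was under 0.05 unadjusted between 4 and 8 h, and none between 8 and 24 h. The second Il2rb probe set rose by 1.07 from 8 to 24 h (SE 0.40, limma unadjusted p = 0.0316, adjusted p = 0.537). The plot of changes from 0 h shows these steps beside their errors. The calls rest on few arrays, since leaving out either 0 h array left 0 of the 4 calls at any time, and leaving out a 4 or 8 h array left 0 or 1. With a 24 h array left out, 3 or 4 calls were left. Without the filter on low signals 0 were called at any of the 3 times.

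**Figure D3:**
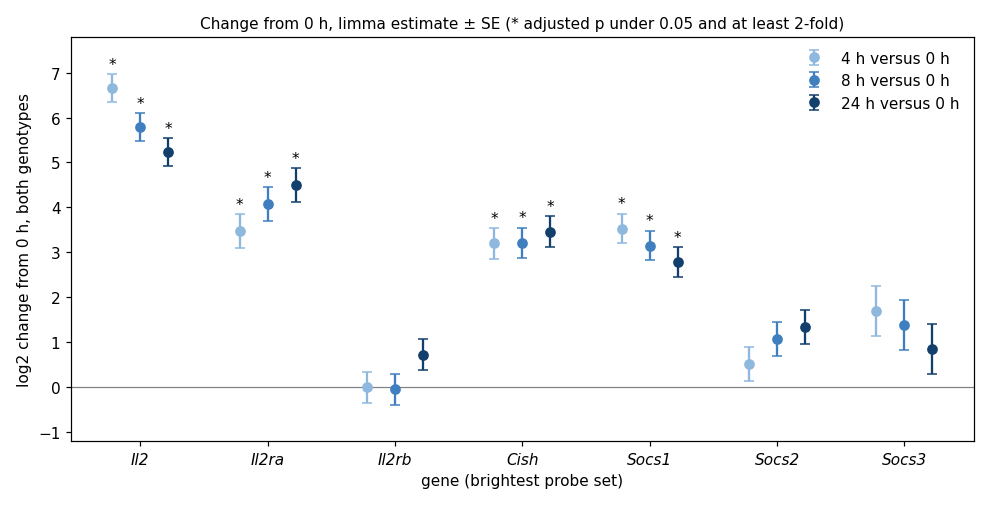
Change from 0 h shared by both genotypes (y axis, log2, limma estimate with its SE as bars) for the brightest probe set of each gene (x axis) at 4, 8 and 24 h. Stars mark calls at an adjusted p under 0.05 and at least 2-fold. Il2, Il2ra, Cish and Socs1 carry stars at all 3 times, and Il2rb, Socs2 and Socs3 carry none.

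Differences between genotypes were mostly under 2-fold. At 0, 4 and 8 h none of the 7 genes was at least 2-fold higher (8.08%, 11.8% and 10.7% of all tested genes) or lower (6.75%, 6.56% and 6.66%). At 24 h Socs3 was higher, 1 of 7 against 9.18%, and none was lower, against 5.06%. These shares are near the background and single out none of the members by number. The median difference of the 7 was -0.29, -0.28, -0.33 and 0.53, beside 0.00, 0.00, -0.08 and 0.00 over all tested genes. The plot of genotype differences shows Il2 lower in the KO-labelled array at 24 h and the other members higher, with Socs3 alone past 2-fold. The share of all tested genes that were higher by any amount was not counted, so nothing is read from this split. In the same arrays the median difference of the T cell markers was -1.91, -1.77, -1.62 and -0.23. None of the 7 was at least 2-fold higher (1.86% of all genes) or lower (0.166%) at all 4 times. Response differences of at least 4-fold were found for 0 of 7 genes at 4 h (0.875% of all genes higher and 0.26% lower) and at 8 h (1.8% and 0.686%). At 24 h Socs3 alone was that much higher, where 3.62% of all genes were higher and 2.57% lower.

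**Figure D4:**
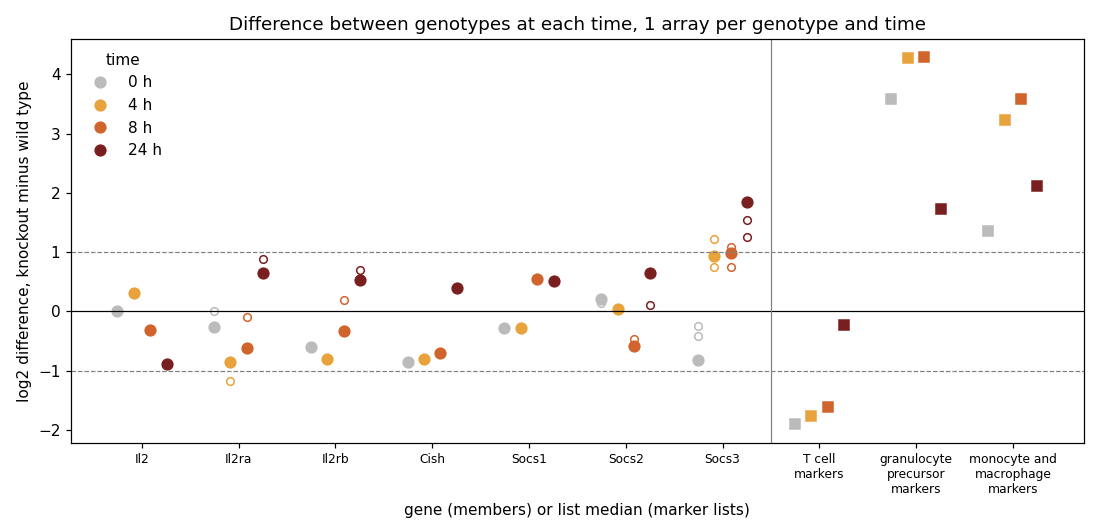
Log2 difference, KO-labelled minus WT-labelled (y axis), at 0, 4, 8 and 24 h for each gene (filled circles, brightest probe set, open circles, other probe sets) and as medians of 3 marker lists (squares), 1 array per genotype and time. Dashed lines mark 2-fold. The 3 Socs3 probe sets lie at 1.25 to 1.85 at 24 h, and Il2 lies at -0.89.

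Other genes of the pathway were read from lists. The 12 measured genes of IL-2 receptor signalling showed no call in limma at any time. Of all tested genes 0.804%, 1.18% and 1.49% rose and 0.627%, 1.25% and 2.48% fell at 4, 8 and 24 h. A list this short can hold no call at such shares, so nothing is read from that. Stat5a, a STAT5 gene, had 1334, 1391, 3214 and 2478 in the KO-labelled arrays, against 1019.8, 3014, 3489.7 and 3324, with changes of 0.81, 1.52 and 1.30 (limma adjusted p = 0.391, 0.0907 and 0.107). The largest mean genotype differences in this list belonged to Jak1 (-0.82, -1.06, -1.16 and -0.02) and to Stat5b, the second STAT5 gene (0.25, -0.89, -1.34 and -0.05). Jak3, the kinase of the gamma chain, had 787, 808, 934 and 1854 in the KO-labelled arrays, against 1034, 644, 589 and 996, and did not pass either. Jak3 and Stat5a were named after their values were seen.

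Of 16 tested genes known to respond to IL-2 and STAT5, 2 rose at 4 h, 4 at 8 h and 7 at 24 h, beside 0.804%, 1.18% and 1.49% of all tested genes, and 0 fell. None of the 16 was called between 4 and 8 h or between 8 and 24 h. Gzmb, the cytotoxic protease granzyme B, gave 1194, 1487, 16876 and 54298 in the KO-labelled arrays, against 426, 1121, 5075 and 23389 in the WT-labelled arrays, a shared rise of 5.64 at 24 h (limma adjusted p = 0.00381, higher in both genotypes). Unlike Il2, this gene was low at 4 h and highest at 24 h in both genotypes. The cytokine Lta rose by 3.97 at 24 h and the costimulatory receptors Tnfrsf4 and Tnfrsf9 by 3.72 and 3.62 (limma adjusted p = 0.00895, 0.00895 and 0.0428). The KO-labelled Lta signal at 0 h (129.7) was under the floor, so the Lta rise on that side is a lower bound. Bcl2, the survival factor, had the largest mean genotype difference beside Gzmb, with 454, 186, 447 and 1227 against 920.2, 1349, 1086 and 985, and differences of -1.02, -2.86, -1.28 and 0.32. The median genotype difference of the 16 was -0.65, -0.81, -0.63 and 0.28, beside T cell marker medians of -1.91, -1.77, -1.62 and -0.23.

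Among 8 tested genes of the gamma chain family, of 10 on the array, 1 rose at 8 h (1.18% of all tested genes) and 1 at 24 h (1.49%). Il15ra, the receptor chain of the related cytokine IL-15, gave 305, 825, 1723 and 712 in the KO-labelled arrays, against 91.6, 1229, 1496 and 696, a shared rise of 2.95 at 8 h (limma adjusted p = 0.0282). The WT-labelled Il15ra signal at 0 h was under the floor, so the rise on that side is a lower bound. Il21, a cytokine of helper T cells, rose by 2.96 at 24 h (limma adjusted p = 0.0373), with signals of 2331 in the KO-labelled and 523 in the WT-labelled array at that time. Both 0 h signals of Il21 (129 and 92.9) were under the floor, so its rise is a lower bound and its SE and p can be too small, as for Il2. Il15 was higher in the KO-labelled array by 0.98, 1.98, 1.74 and 1.15, and Il4 differed by -0.84, -5.51, -5.14 and -2.16. The WT-labelled Il15 signal was under the floor at 0 and 24 h, so those 2 differences are lower bounds, and the KO-labelled Il4 signal was under it at 0 and 8 h, so its differences there are bounds too.

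The 13 other measured inhibitors of cytokine signalling showed no call, with medians of 0.09, -0.06 and -0.25 at 4, 8 and 24 h. They included Socs4, Socs5, Socs6 and Socs7, whose shared changes at 24 h were 0.88, 0.43, -0.90 and -0.49 (limma adjusted p = 0.251, 0.566, 0.147 and 0.317). Over all tested genes 0.804%, 1.18% and 1.49% rose and 0.627%, 1.25% and 2.48% fell at 4, 8 and 24 h. At such shares a list this short can hold no call, so nothing is read from the lack of calls among these relatives. The phosphatase Ptpn2, which acts on Jak1, Jak3 and STAT5, had differences of -0.61, -0.51, -0.58 and 0.03, and Pias2, of the family of STAT inhibitors, -0.01, -0.86, -0.41 and -0.74.

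Of 16 measured regulators of Il2 transcription, 0 rose, beside 0.804%, 1.18% and 1.49% of all tested genes at 4, 8 and 24 h. Fos fell at 24 h (-3.39, limma adjusted p = 0.0400), where 2.48% of all tested genes fell. Fos, a subunit of AP-1, gave 15294, 6147, 3267 and 2392 in the KO-labelled arrays, against 14366, 14241, 7233 and 838. At 4 h, when Il2 was highest, in KO-labelled cells 8 of the 16 were lower by 2-fold or more (6.56% of all tested genes) and 1 was higher (11.8%). At 24 h 6 were higher (9.18%) and 0 lower (5.06%). In the same arrays 13 of the 14 T cell markers were lower by 2-fold or more at 4 h and 1 at 24 h, and their part was not tested. The median differences were -0.31, -0.88, -0.71 and 0.56. Zeb1 and Prdm1, both described as repressors of Il2, differed in opposite directions at 0, 4 and 8 h and were both higher in the KO-labelled array at 24 h. Zeb1 stood at -1.23, -2.13, -1.55 and 0.80, and Prdm1 at 0.93, 1.37, 0.54 and 2.31. Il2 itself differed by 0.31 at 4 h.

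Likeness of pattern was measured by Pearson's r of log2 signal over the 8 arrays, which share 2 sources and 4 times, against 1658 or 1659 genes with a range of at least 2 on the log2 scale. Among the members the highest was 0.98, between Il2ra and Cish, and then 0.97, between Il2 and Socs1. Il2 was most like the NF-kB subunit gene Nfkb2 (r = 0.979), the chemokine Xcl1 (0.974) and Socs1 (0.972). Il2ra was most like Tnfrsf4 (0.988), Rbpj (0.984) and Cish, and Cish was most like Lta (0.991), Ptger2 (0.983) and Il2ra. Socs1 was most like Nfkb2 (0.986) and the interferon-inducible Iigp1 (0.984) and Gbp2 (0.983).

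Il2rb, Socs2 and Socs3 had looser matches. Il2rb was most like the IL-21 receptor gene Il21r (0.952), Rras2 (0.920) and Casp6 (0.911), and Socs2 was most like Pfkp (0.961), Clcn5 (0.924) and Vegfa (0.921). Socs3 was most like Acod1 (0.939), which makes itaconate, Ccrl2 (0.939) and Casp4 (0.928). Its r with Cish was 0.59 and with Socs1 0.76, and with Il2rb it was -0.02. With 8 points these values are a description.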

How the data were processed

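Labelled cRNA from total RNA (biotin) was measured on 8 arrays. The deposited values are signal intensity per probe set; per the submitters' processing notes GCOS 1.4 and MAS5 were used, with settings that the sources do not state. The 2% trimmed mean was 1000.4 to 1000.5 on every array, and 56.5% to 61.5% of probe sets lay above the floor. With 1 array per genotype and time, the number of arrays limits the precision. All sample columns were used. Of the 22690 probe sets 64 were controls; 20380 listed 1 gene symbol, 691 several and 1555 none. The floor of 141.88 was the median over arrays of the 40th percentile. Probe sets above it on at least 2 arrays (15062) were tested.

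Stimulation was tested in limma 3.58.1 (R 4.3.3) on log2 values with time and genotype terms, a variance trend and Benjamini-Hochberg adjustment over all tested probe sets, with 3 residual degrees of freedom. Genotypes (at least 2-fold) and response differences (at least 4-fold) were compared by size. The limma call at 4 h versus 0 h was tried on simulated data with independent noise and no genotype difference. The outcome is not given here, and nothing is read from it. Genes of a list are named by the largest called stimulation change (at most 4) and the largest mean genotype difference (at most 2), and the 3 genes most alike are named for each member. The members, lists and tests were chosen with earlier results of these data known. Figures used matplotlib 3.10.9 under python 3.11.15.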

Additional observations from a re-analysis of the deposited data

Results flagged for a closer look

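In some members the KO-labelled and WT-labelled arrays moved in opposite directions over the same interval, by any amount, which is what brought them here. The share of all tested genes with such opposite moves was not counted, so nothing is read from how many members are listed. With 1 array per genotype and time these differences were not tested. The largest belonged to Socs3 from 0 to 24 h, a change of 2.18 in the KO-labelled arrays against -0.50 in the WT-labelled arrays, a difference of 2.67 on the log2 scale. From 8 to 24 h Il2ra changed by 1.05 against -0.22 (difference 1.27), Socs2 by 0.88 against -0.36 (1.24) and Cish by 0.80 against -0.30 (1.09). For Il2ra the second probe set did not move in opposite directions (1.47 against 0.49), and for Socs2 the second gave 0.18 against -0.40. The summed T cell marker signal at 8 and 24 h was 26106 and 70307 in the KO-labelled arrays, against 70063 and 76886 in the WT-labelled arrays. Its part was not tested.

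Smaller opposite moves were seen from 4 to 8 h in Socs1 (0.03 against -0.80, difference 0.82), Il2rb (0.19 against -0.28, 0.46) and Cish (0.06 against -0.05, 0.11). In Il2rb they were also seen from 0 h to 4 h (-0.11 against 0.09, difference -0.20), where its second probe set moved one way (-0.30 against -0.08), and from 0 h to 8 h (0.08 against -0.19, 0.27).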

How the results depend on the processing

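The genotype term of the fit is also a term for the source, since each genotype has 1, and without that term 4 members rose at each time. No paired analysis was possible between genotypes, because each genotype and time has 1 array and the labels tie no KO-labelled source to a WT-labelled one. The count of members that rose from 0 h (4 at each time) was 3 or 4 under both other scalings, both other floors, the added floor value, the median over probe sets, no variance trend, no genotype term and both other fold thresholds. It was 0 at 4, 8 and 24 h without the filter, where the median prior degrees of freedom were 0.744, against 3.88 with it. Leaving out arrays gave 0 to 4 at each time, and the count of members that fell stayed 0. Directions turned in changes that had not passed the test. Quantile normalization put Il2rb at 0.045 (4 h) and 0.025 (8 h). Arrays divided by their medians put it at 0.175, 0.202 and, for 8 versus 4 h, 0.027. Cish from 4 to 8 h gave -0.023 with quantile normalization. Without single arrays the ranges were -0.340 to 0.323, -0.253 to 0.145 and -0.377 to 0.286 for Il2rb at 4 h, at 8 h and from 4 to 8 h, -0.202 to 1.880 for Socs3 at 24 h and -1.281 to 0.202 from 8 to 24 h, -0.205 to 0.219 and -0.338 to 0.839 for Cish from 4 to 8 h and from 8 to 24 h, and -0.195 to 1.032 for Il2ra and -0.186 to 0.709 for Socs2 from 8 to 24 h. The cause was not tested.

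By genotype, the 1.5-fold threshold gave 3 lower at 0 h, 1 higher and 3 lower at 4 h, 1 higher and 3 lower at 8 h and 3 higher and 1 lower at 24 h, where 4-fold gave 0 higher. The median over probe sets gave 1 higher (Socs3) and 1 lower (Il2ra) at 4 h, 1 higher at 8 h and 0 response differences at 24 h. The lower floor gave 1 lower at 0 h (Il2), and arrays divided by their medians gave 1 lower at 24 h (Il2) and moved the median of all genes to -0.11, -0.16 and -0.19 at 4, 8 and 24 h. A 2-fold response threshold gave 1, 1 and 3 members higher at 4, 8 and 24 h. Relative to the median of the T cell marker list, an alternative chosen after seeing the data, 7, 4 and 5 members were at least 2-fold higher at 0, 4 and 8 h, as were 91.8%, 88.3% and 81.2% of all tested genes, so the shift sets these counts and nothing is read from them. The 7 at 0 h include Il2, which was under the floor in both arrays.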
